A study of Mus musculus with 6 samples.

Results

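Cells export surplus cholesterol with the help of genes under the liver X receptors (LXRs). The receptors, some export genes and enzymes of phospholipids, sterol esters and oxysterols, 9 genes in all, were followed in synovial fibroblasts (SFs) given amisulpride. The 9 were taken by gene name from the 49548 genes of the expression table: the receptors Nr1h3 (LXRα) and Nr1h2 (LXRβ), the efflux transporters Abca1 and Abcg1, the lipid acceptor Apoe, the phospholipid enzyme Lpcat3, the ester-handling enzymes Soat1 and Nceh1, and the oxysterol enzyme Ch25h. SFs were taken from the ankles of CBA C57BL/6J mice aged 8 weeks with a transgene for human TNF (hTNFtg), a model of destructive polyarthritis, and CD45+ cells were depleted from the cultures at passage 1. All cells compared carried the transgene. A group of 3 cultures received 500 μM amisulpride, a dopamine and serotonin receptor blocker used as an antipsychotic, for 48 hours, and the other 3 are labelled as not treated, while the methods speak of vehicle. RNA was read with a 3′ mRNA kit, and values are rounded normalised read counts, called normalised counts here. Their spacing was read as 1 scaling factor per library.

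LXRs are nuclear receptors that bind DNA as partners of the retinoid X receptors and are switched on by oxysterols, the oxygenated derivatives of cholesterol. Their targets move cholesterol out of the cell, remodel membrane phospholipids and drive fatty acid synthesis. ABCA1 loads cholesterol and phospholipid onto lipid-poor apolipoproteins and ABCG1 passes cholesterol to larger lipoprotein particles, while SOAT1 stores cholesterol as esters and NCEH1 releases it again. CH25H makes 25-hydroxycholesterol, an oxysterol that can activate LXRs and that also restrains the processing of SREBP-2, the transcription factor behind cholesterol synthesis.

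The sequences just upstream of the start sites of Ch25h and Abca1 are shown because Ch25h was the gene of the 9 with the lowest p-value and Abca1, a well-known LXR target, passed no threshold. Both run 5′ to 3′ on the minus strand over the 250 bases before the RefSeq start in GRCm38.p6, at chr19:34475149-34475398 for Ch25h and chr4:53159896-53160145 for Abca1. Capitals mark a cyclic AMP response element in Ch25h and a relaxed DR4 repeat, the kind of element that LXRs bind, in Abca1.
Ch25h: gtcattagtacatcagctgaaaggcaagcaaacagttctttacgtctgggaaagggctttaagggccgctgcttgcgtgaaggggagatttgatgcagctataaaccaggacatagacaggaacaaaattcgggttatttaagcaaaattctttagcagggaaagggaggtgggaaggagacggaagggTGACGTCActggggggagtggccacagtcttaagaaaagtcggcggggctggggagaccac
Abca1: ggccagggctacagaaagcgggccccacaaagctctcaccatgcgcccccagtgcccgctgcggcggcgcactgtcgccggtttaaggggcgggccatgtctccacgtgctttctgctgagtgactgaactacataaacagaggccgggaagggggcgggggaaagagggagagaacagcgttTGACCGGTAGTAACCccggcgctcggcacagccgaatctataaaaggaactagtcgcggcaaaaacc
Promoter entries of 300 bases, from 250 before to 50 after the start, were found for 8 of the 9 genes, and both strands were searched. Abcg1 had no entry, so its promoter was not searched. The strict repeat AGGTCANNNNAGGTCA stood in 0.0152% of 32851 promoters and in none of the 8 genes. The relaxed form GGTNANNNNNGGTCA was then written so as to take in the known Abca1 element. It stood in 0.207% of promoters, and in Abca1 it lay on the opposite strand at -67 to -53 from the start. The cyclic AMP response element TGACGTCA stood in 1.79% of promoters and in Ch25h at -61 to -54. The E-box CACGTG stood in 7.15% of promoters and in those of Abca1 and Nceh1. None of the 8 genes searched held the AP-1 motif TGANTCA (7.81% of promoters), the NF-kB motif (8.46%) or the sterol response element TCACNCCAC (1.24%). These matches describe letters in a window and are not measured binding.

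Totals were 3.83 to 4.50 M normalised counts per library, from approximately 2.52 to 4.71 M reads, and 16851 to 18364 genes were above 0 in each. Amisulpride replicate 3 was the shallowest library and stood apart on the leading principal component, at 73.9 against -38.2 to 10.4 in the others. All 13 fibroblast markers were above 0 in all libraries. Although CD45+ cells had been depleted, so were 17 of 18 macrophage markers, and none of the defining ones (Ptprc, Adgre1, Csf1r, Cd68 and Lyz2) was at 0. The summed macrophage markers were 2574 to 4558 in untreated and 2615 to 4632 in treated libraries. Lyz2 alone made up most of each sum, at the least 1394 of 2623 in amisulpride replicate 3, so the sum mainly follows that gene. Of 12614 genes tested with limma, 36 had an adjusted p under 0.05 and 719 passed the study thresholds, which ask for a log2 fold change of 1 or more in either direction and a p under 0.05 before adjustment.

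Of the 9 genes, 8 had enough signal to be tested, and Ch25h and Abcg1 passed the study thresholds, both lower with amisulpride. Of all tested genes, 3.01% passed these thresholds in the lower and 2.69% in the higher direction. None of the 8 had an adjusted p under 0.05 in limma, a call made for 0.285% of all tested genes. With the replicate number as a block, Ch25h alone among the 8 had an adjusted p under 0.05, against 2.08% of all tested genes. The labels do not state that libraries of the same number are paired. The 3 treated values lay below all 3 untreated values for Ch25h and Abcg1 and overlapped them for the other 6 tested genes, while 8.66% of all tested genes were separated in that direction. The median log2 fold change was -0.29 over the 8 genes and 0 over all tested genes.

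**Figure D1:**
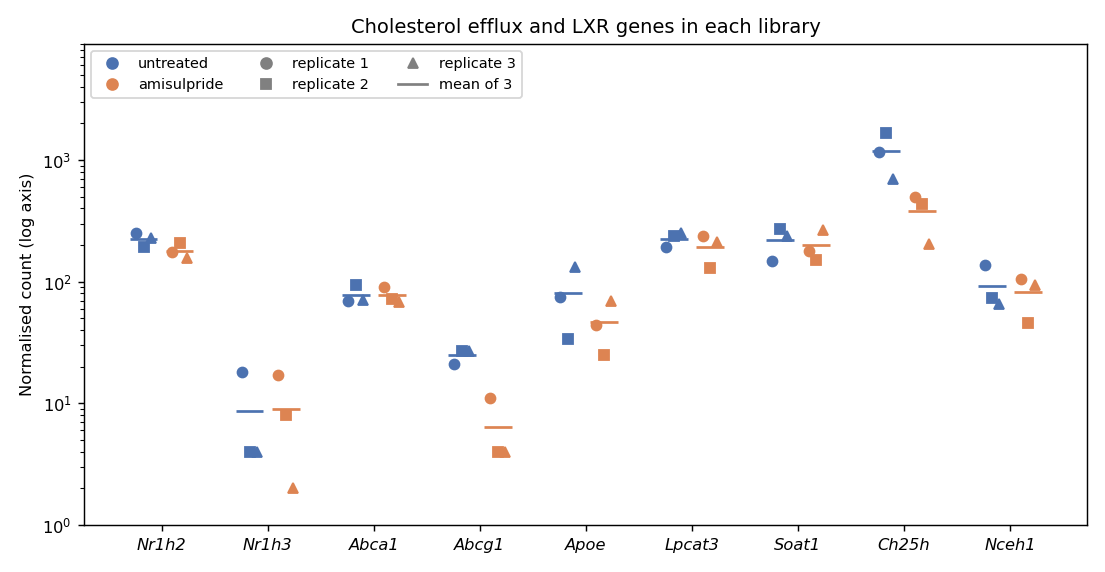
Normalised counts (log axis) of the 9 genes in the 3 untreated (blue) and 3 amisulpride (orange) libraries, with a line at each mean and a marker shape for each replicate number. The groups are apart for Ch25h and Abcg1 and overlap for the other 7 genes.

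The oxysterol enzyme was compared to see whether the source of an LXR ligand changed with treatment. Ch25h (ENSMUSG00000050370, chromosome 19, 34473786 to 34475135, minus strand, mm10) encodes cholesterol 25-hydroxylase, an enzyme of the endoplasmic reticulum that inflammatory signals induce in many cells. It was read at 1168, 1684 and 693 normalised counts in untreated replicates 1, 2 and 3, and at 497, 436 and 204 in the treated ones. The highest treated value lay below the lowest untreated value, and replicate 3 was the lowest of its group in both. Means were 1182 ± 496 and 379 ± 155 (SD, n = 3), so Ch25h was 3.13-fold lower. The log2 fold change was -1.65 ± 0.39 (SE; 95% interval -2.50 to -0.79), with an unadjusted p of 0.00137 and an adjusted p of 0.113 in limma. Within replicate numbers the log2 differences were -1.23, -1.95 and -1.76, lower in 3 of 3. With the replicate block the adjusted p was 0.00212 (interval -2.19 to -1.11). Without the library that stood apart, amisulpride replicate 3, the log2 fold change was -1.25 with an unadjusted p of 0.00236 and an adjusted p of 0.11. The antisense transcript Gm26902 overlaps 328 bases of Ch25h and had means of 7.33 and 3.67 normalised counts, far under those of Ch25h.

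Abcg1 (ENSMUSG00000024030, chromosome 17, 31057698 to 31115777, plus strand) was the other gene past the study thresholds, at a low level. It was read at 21, 27 and 27 normalised counts in untreated SFs and at 11, 4 and 4 in treated SFs. All treated values lay below the untreated ones, and those of amisulpride replicates 2 and 3 were at or under the level of 3 reads (4.01 and 5.37 normalised counts). Means were 25 ± 3.46 and 6.33 ± 4.04 (SD, n = 3), which on the log2 scale with 1 added was a change of -1.95 ± 0.53 (SE; interval -3.10 to -0.79). The unadjusted p was 0.00336 and the adjusted p 0.173. In approximate reads Abcg1 had 79 in the untreated and 17 in the treated libraries, and per read sequenced it was 3.71-fold lower with amisulpride, with an exact 95% interval of 2.18 to 6.69 that covers counting error only. Without amisulpride replicate 3 the log2 fold change was -1.74, with an unadjusted p of 0.00629. Of the 30-base words at the annotated ends of Abcg1 transcripts, 6.72% also stood, on either strand, somewhere in the transcripts of other genes.

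Abcg1 and Ch25h are also expressed by macrophages, and some macrophage markers moved with the treatment. Ptprc, which encodes CD45, was read at 38, 12 and 18 normalised counts in untreated and at 23, 5 and 5 in treated libraries, lower in 3 of 3 replicate numbers although the groups overlapped (log2 fold change -1.16, adjusted p 0.562 and 0.297 with the replicate block). Adgre1, which encodes the macrophage antigen F4/80, went the other way within all 3 numbers, from 39, 25 and 14 to 59, 43 and 32 (0.83, adjusted p 0.518 and 0.297 with the block). Of the other defining markers, Csf1r was read at 114, 93 and 76 against 41, 23 and 100, Cd68 at 210, 119 and 144 against 219, 122 and 256, and Lyz2 at 3046, 1733 and 2188 against 3287, 1879 and 1394. The defining markers thus had no common direction. Cd14, a co-receptor for bacterial lipopolysaccharide, fell at the study thresholds from 121, 69 and 76 to 47, 25 and 13 (log2 fold change -1.74, adjusted p 0.144 and 0.012 with the block). Of the 17 macrophage markers tested, Cd14 and Csf1r were lower and Marco higher past the study thresholds (Marco 1.30, adjusted p 0.256 and 0.0401 with the block), and the median was 0.05. In those directions 3.01% and 2.69% of all tested genes passed. The part of these cells in the values of Ch25h and Abcg1 was not tested, and in bulk RNA fewer cells of a type and less RNA per cell cannot be told apart.

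Abca1 (ENSMUSG00000015243, chromosome 4, 53030787 to 53159895, minus strand), the transporter that shares cholesterol export with Abcg1, gave no detectable change. It was read at 70, 94 and 71 normalised counts in untreated and at 91, 72 and 68 in treated SFs. The groups overlapped throughout, with means of 78.3 ± 13.6 and 77 ± 12.3 (SD, n = 3). The log2 fold change was -0.02 ± 0.28 (SE) with an adjusted p of 0.983. Its interval of -0.64 to 0.59 leaves room for a change of either sign that is smaller than the study threshold. The difference between the changes of Abca1 and Abcg1 was not tested.

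Apoe (ENSMUSG00000002985, chromosome 7, 19696109 to 19699188, minus strand) encodes apolipoprotein E, which takes up exported lipid. It was read at 75, 34 and 131 normalised counts in untreated SFs and at 44, 25 and 70 in treated SFs, with replicate 3 highest and replicate 2 lowest in both groups. The groups overlapped, at 80 ± 48.7 and 46.3 ± 22.6 (SD, n = 3). The log2 fold change was -0.69 ± 0.50 (SE; interval -1.78 to 0.40) with an adjusted p of 0.66. Within each replicate number the treated value was the lower one, by -0.76, -0.43 and -0.89 on the log2 scale, and with the replicate block the unadjusted p was 0.0413 and the adjusted p 0.315. Apoe rested on single libraries: without untreated replicate 2 its log2 fold change was -1.20 with an unadjusted p of 0.0299, past the study thresholds, and without untreated replicate 3 it was -0.24, and without amisulpride replicate 2 it was -0.32. Without amisulpride replicate 3, the library that stood apart, it was -1.04 with an unadjusted p of 0.0531.

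The receptors themselves were compared next. Nr1h2 (ENSMUSG00000060601, chromosome 7, 44549616 to 44553951, minus strand), the LXR found in most tissues, was read at 249, 192 and 227 normalised counts in untreated and at 174, 206 and 157 in treated SFs. The groups overlapped by 1 library of each, with means of 222.7 ± 28.7 and 179 ± 24.9 (SD, n = 3). Its log2 fold change was -0.31 ± 0.25 (SE; interval -0.86 to 0.23) with an adjusted p of 0.696. Nr1h3 (ENSMUSG00000002108, chromosome 2, 91184061 to 91202834, minus strand), the LXR best known from liver, fat and macrophages, was read at 18, 4 and 4 in untreated and at 17, 8 and 2 in treated SFs. It did not reach 10 normalised counts in 3 libraries and was not tested. Replicate 1 was the highest library of each group for Nr1h3. In approximate reads Nr1h3 had 27 in untreated and 26 in treated libraries, a ratio of untreated over treated of 0.83 per read sequenced with an exact 95% interval of 0.466 to 1.48 for counting error only.

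Lpcat3 (ENSMUSG00000004270, chromosome 6, 124663027 to 124704418, plus strand) puts polyunsaturated chains into membrane phospholipids. It was read at 191, 236 and 250 normalised counts in untreated SFs and at 239, 130 and 211 in treated SFs, with amisulpride replicate 2 lowest. Its log2 fold change was -0.26 ± 0.29 (SE; interval -0.89 to 0.37) with an adjusted p of 0.784. The value of Lpcat3 is uncertain, because its 3′ end overlaps that of Emg1 on the opposite strand over 334 bases (chromosome 6, 124704085 to 124704418) and whether counting used strand is not given in the sources used here. Emg1 had means of 333.7 and 336.7 normalised counts, so it was read at a higher level than Lpcat3.

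Storage and release of cholesterol esters were compared through Soat1 and Nceh1. Soat1 (ENSMUSG00000026600, chromosome 1, 156424525 to 156474331, minus strand) was read at 148, 272 and 239 normalised counts in untreated and at 178, 150 and 268 in treated SFs, with both groups spread over the same range. Its log2 fold change was -0.14 ± 0.31 (SE; interval -0.83 to 0.55) with an adjusted p of 0.897. Nceh1 (ENSMUSG00000027698, chromosome 3, 27182965 to 27284608, plus strand) was read at 137, 73 and 65 in untreated and at 106, 46 and 93 in treated SFs. The groups overlapped, and the log2 fold change was -0.17 ± 0.39 (SE; interval -1.02 to 0.68) with an adjusted p of 0.902. The interval of Soat1 lies within the study threshold of 1 in both directions, as do those of Nr1h2, Lpcat3 and Abca1, whereas those of Apoe and Nceh1 reach past -1.

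**Figure D2:**
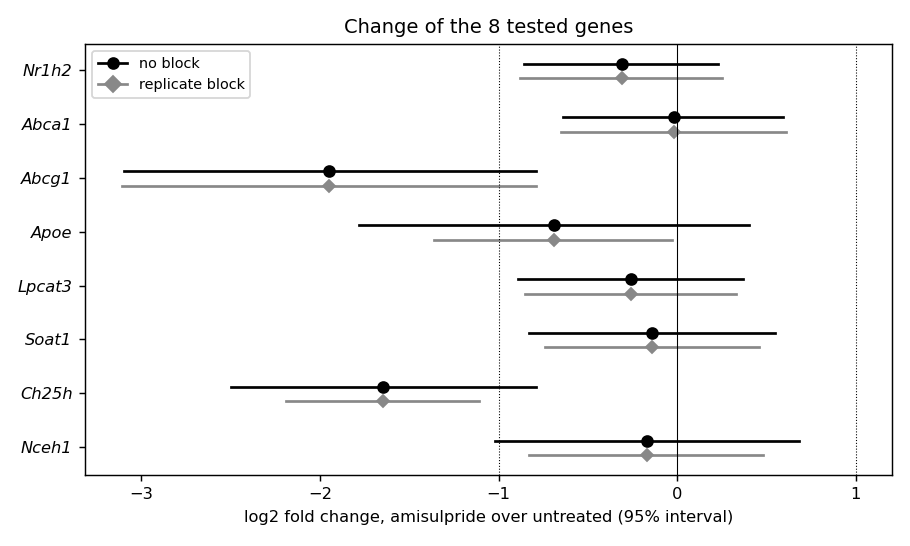
log2 fold change of the 8 tested genes, amisulpride over untreated, with 95% intervals from limma without (black circles) and with the replicate block (grey diamonds), and dotted lines at -1 and 1. The intervals of Ch25h and Abcg1 lie below 0 in both fits, and that of Apoe (-1.36 to -0.03) only with the block.

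The genes with the expression pattern most like that of Ch25h over the 6 libraries, by Pearson correlation of log2 values, were Ptger4 (r = 0.996), Snhg4 (0.996) and Luc7l3 (0.994). Ptger4 encodes a prostaglandin E2 receptor and Snhg4 a host transcript of small nucleolar RNAs. Those most like Abcg1 were Cdkn2c (0.992), Armcx4 (0.992) and Sphk1 (0.991), of which Cdkn2c encodes a cyclin-dependent kinase inhibitor and Sphk1 a kinase that makes sphingosine 1-phosphate. Ch25h and Abcg1 correlated with each other at 0.854. With 6 libraries that share 2 group levels these values are a description, and 44 and 89 genes reached at least 0.95 with Ch25h and Abcg1, respectively.

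Other genes of the pathway were set beside the 8. Of 34 further LXR target genes, 20 were tested, with a median log2 fold change of -0.21, and 5 were lower and 2 higher past the study thresholds, which 3.01% and 2.69% of all tested genes passed in those directions. An adjusted p under 0.05 was reached by 2 of the 20, and by 6 with the replicate block, against 0.285% and 2.08% of all tested genes. The lower ones were the fatty acid desaturases Scd2 (-2.25, adjusted p 0.013) and Scd1 (-2.20, adjusted p 0.014), the small GTPase gene Arl4c (-1.44, adjusted p 0.0611 and 0.00894 with the block), Fasn (-1.32, adjusted p 0.0982 and 0.0267 with the block) and Acaca (-1.16), the last pair encoding fatty acid synthase and acetyl-CoA carboxylase. Pltp, which encodes the phospholipid transfer protein of plasma lipoproteins, was higher at 95, 130 and 109 normalised counts against 43, 26 and 43 (log2 fold change 1.58, adjusted p 0.0646 and 0.015 with the block), and so was the transglutaminase gene Tgm2 (1.04, adjusted p 0.209 and 0.0429 with the block). Thus LXR targets moved past the thresholds in both directions, and those of lipid synthesis are also known SREBP-1 targets. The part of either regulator in these changes was not tested. Of the 12 receptor partners and coregulators 10 were tested, none passed, and the median was 0.08, with Ncoa2 (0.70, adjusted p 0.599) and Nrip1 (0.45, adjusted p 0.611) at the lowest p-values.

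Of 14 other genes of ester storage and hydrolysis, 6 were tested and none passed the study thresholds, with a median of 0.19. The lowest p-values were those of Lipa, the lysosomal acid lipase that hydrolyses cholesterol esters (log2 fold change 0.81, adjusted p 0.414), and Ldah (0.80, adjusted p 0.481). Of 16 other oxysterol and bile acid genes, 6 were tested, with a list median of 0.01. Of 39 genes of intracellular sterol transport and lipid acceptors, 29 were tested, with a median of 0.13. The sterol carrier Stard4 was lower (-1.66, adjusted p 0.0764 and 0.0126 with the block) and Mttp, which loads lipid onto lipoproteins, was higher (1.60, adjusted p 0.261). Values of Mttp were low, at 7, 5 and 8 normalised counts in untreated and 17, 16 and 38 in treated libraries. All its untreated values lay under the level required for testing, so Mttp was tested only through its treated values.

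In the cholesterol synthesis list all 21 genes were tested, and all had a negative log2 fold change, with a median of -1.18. Of these, 14 were lower past the study thresholds, against 3.01% of all tested genes. Among them were Fdps, Mvd, Cyp51, Fdft1, Idi1, Sc5d, Msmo1, Sqle, Hsd17b7, Pmvk, Nsdhl and Tm7sf2, which ranged from -2.48 in Fdps to -1.07 in Nsdhl. An adjusted p under 0.05 was reached by 4 of the 21, and by 10 with the replicate block, against 0.285% and 2.08% of all tested genes. Not all were clearly lower, and the smallest change was -0.05 (adjusted p 0.972 in limma). Another gene, at -0.25, had the higher mean in treated libraries (1110 against 1016 normalised counts), through amisulpride replicate 3 at 2312. Of 14 SREBP regulators and uptake genes 13 were tested, with a median of -0.43, and Insig1 (-1.33) and Lrp8 (-1.10) were among those lower past the thresholds. The lists are not compared by a test, and all share the same 6 libraries.

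**Figure D3:**
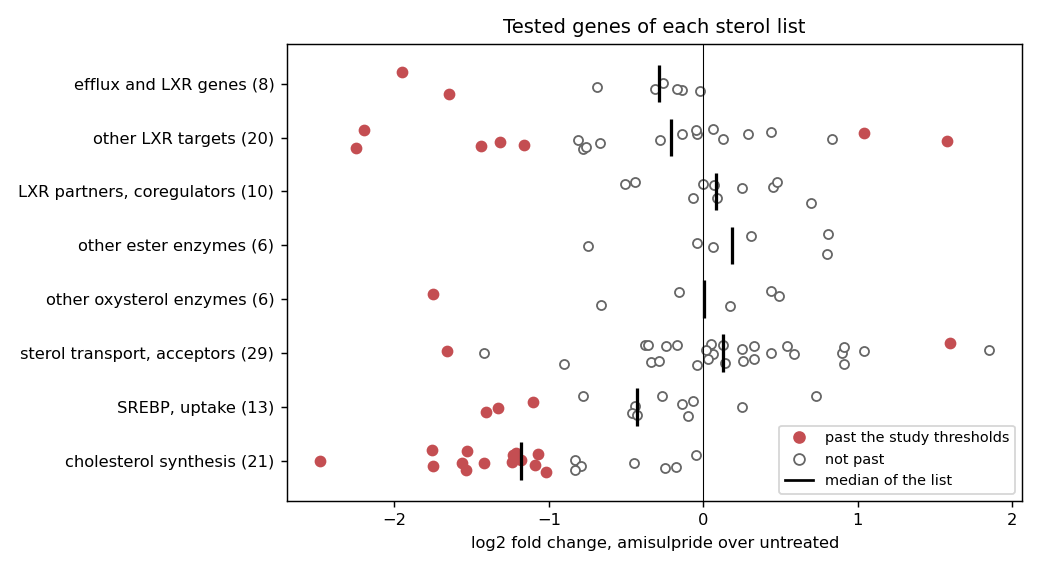
log2 fold change, amisulpride over untreated, of each tested gene (number in brackets) in the 9-gene set and 7 other sterol lists, with genes past the study thresholds in red and a bar at each list's median. The median is -0.29 for the efflux and LXR genes and -1.18 for cholesterol synthesis, and other LXR targets lie on both sides of 0.

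The changes of Ch25h and Abcg1 held their direction and passed the study thresholds under every other setting that gave a value, 14 for Ch25h (-1.98 to -1.25) and 13 for Abcg1 (-2.37 to -1.45). The adjusted p of Ch25h ranged from 0.00212 to 0.38 over these settings, under 0.05 only with the replicate block, and that of Abcg1 from 0.0774 to 0.558.

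**Figure D4:**
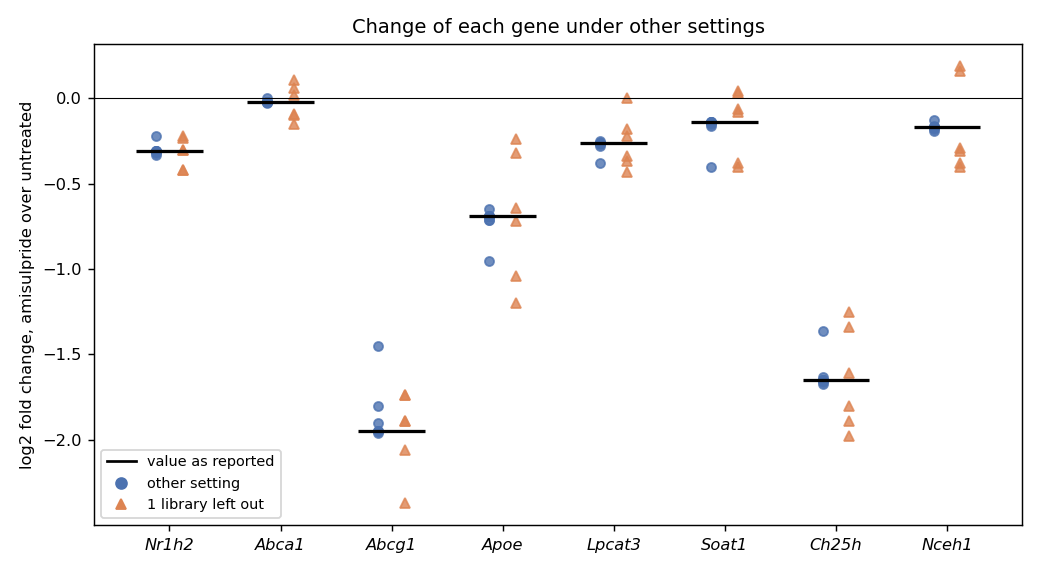
log2 fold change, amisulpride over untreated, of each tested gene as reported (bar), under other settings (circles) and with 1 library left out (triangles). Ch25h and Abcg1 stay at or below -1.25, while values of Abca1, Soat1 and Nceh1 fall on both sides of 0.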

How the data were processed

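SF libraries, 3 per group, were compared by 3′ mRNA sequencing on an Ion Proton. The authors mapped reads to mm10 with TopHat2 and then Bowtie2, counted reads per gene with GenomicRanges and normalised the counts by a method that the methods text does not name, before testing with DESeq, all through metaseqr, with versions not stated. The values the authors deposited are a score, normalised and rounded read counts, and so were tested on a log scale. Scaling by 1 factor per library was inferred from the spacing of the values and is not stated by the authors. The deposited table's own fold changes, p-values and adjusted p-values and 12 other per-library columns were not used. Replicates are biological per the methods, and p-values measure the spread between these libraries.

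The 9 genes and all gene lists were chosen with earlier results of these data known. Tests used limma (version 3.58.1, R version 4.3.3) with log2(normalised count + 1) as input, over genes of at least 10 in at least 3 libraries, with a trended variance prior (prior degrees of freedom 7.31). Tests were two-sided with Benjamini-Hochberg adjustment over 12614 genes, and fold changes on this scale understate those of low genes. Values were not divided by length. All 9 genes are named, with, in each other list, the genes past the study thresholds or else the 2 with the lowest p, and the 3 genes most correlated with Ch25h and with Abcg1. Some genes of the other lists are not reported here. An exact permutation test cannot go below 0.1 with 3 against 3, so none was used. The fit was tested on simulated data.

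Same-numbered libraries deviated together from their group means (correlations 0.23, 0.24 and 0.20, against at most -0.08 between other numbers). Deviations within a group of 3 balance out, so the negative values follow partly from the positive ones and are not separate evidence. The labels state no pairing, and with 3 numbers such a match can arise by chance. The replicate block therefore rests on a pairing assumed from the data. The fit with this block is given for the 8 tested genes and, for some other genes, as a value or within a count. Depth was estimated from the step of the rounded values, least surely in untreated replicate 1, and 3 reads corresponded to 2.50 to 5.37 normalised counts. Intervals and floors cover counting error only, since reads carried no molecular identifiers. Promoters came from RefSeq (GRCm38.p6), overlaps from the gene positions deposited with the values, and transcript ends from GENCODE M21. RefSeq and GENCODE M21 are on the same build as mm10. The alternatives were 14, among them other pseudocounts, filters, scalings, weights, a replicate block and each library left out.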

Additional observations from a re-analysis of the deposited data

How the results depend on the processing

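Of 111 values of single genes under 14 alternatives, 102 kept their direction and their side of the study thresholds. Ch25h and Abcg1 were among them in each alternative that gave a value. The sign turned in 8, all of genes that passed no threshold and with 1 library left out: Abca1 was 0.11 without untreated replicate 2, and 0.02 and 0.06 without treated replicates 2 and 3, Lpcat3 0.00 without amisulpride replicate 2, Soat1 0.03 and 0.04 without replicate 2 of the untreated and of the treated group, and Nceh1 0.16 without untreated replicate 1 and 0.19 without treated replicate 2. With 1 library left out the range was -0.15 to 0.11 for Abca1, -0.43 to 0.00 for Lpcat3, -0.40 to 0.04 for Soat1 and -0.40 to 0.19 for Nceh1. The remaining value was that of Apoe, past the thresholds without untreated replicate 2.

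The number of the 9 genes past the study thresholds was 2, and 1 with a filter of at least 30, which removes Abcg1. With 1 library left out it was 2 to 3. The number of all genes with an adjusted p under 0.05 was 36, and 57 with a pseudocount of 5, 57 with no filter, 66 with quantile normalisation, 195 with library weights and 263 with the replicate block, which changed no call of the 8 tested genes other than that of Ch25h at an adjusted p under 0.05. Leaving out 1 library gave 0 to 120. In limma, untreated replicates 2 and 3 each brought it to 0 when left out, with 1083 and 911 genes at an unadjusted p under 0.05, while untreated replicate 1 brought it to 1, amisulpride replicates 1 and 2 to 17 and 6, and amisulpride replicate 3 to 120. The cause was not tested. Depth limits Abcg1 and Nr1h3, at or under 3 reads in amisulpride replicate 3 and, for Abcg1, also in amisulpride replicate 2.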

Other observations

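Other cell types that the cultures could hold were looked at through fixed marker lists. Of 12 fibroblast markers tested none passed the study thresholds, with a median log2 fold change of 0.19 and the lowest p-values in Prg4, the lubricin of lining cells (-0.92, adjusted p 0.251), and Col1a2 (0.71, adjusted p 0.487). The summed fibroblast markers were 45070 to 59779 normalised counts in untreated and 51772 to 91419 in treated libraries. Of 8 adipocyte markers, which matter here because fat cells express Nr1h3, 4 were at 0 in every library (Adipoq, Cidec, Lep and Cfd). Only Fabp4 was tested (-0.82, adjusted p 0.261), at 303, 309 and 324 normalised counts in untreated and 128, 187 and 229 in treated libraries. The summed adipocyte markers were 308 to 329 in untreated and 138 to 254 in treated libraries. Of 8 endothelial markers, Cdh5 and Tie1 were at 0 in every library. Only Egfl7 was tested (-0.83, adjusted p 0.424), at 66, 84 and 78 in untreated and 50, 59 and 25 in treated libraries. The summed endothelial markers were 77 to 98 in untreated and 27 to 67 in treated libraries. Fabp4 and Egfl7 were thus lower without overlap of the groups, as were 8.66% of all tested genes. The part of such cells in the values of the 9 genes was not tested.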
